A study of Mus musculus with 24 samples.

Results

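Ccl6, Ccl8, Ccl9 and Ccl12 are CC chemokine ligands, small secreted proteins that draw monocytes into tissue. They were taken by name as 4 transcripts (uc007kpm.1, uc007kmt.2, uc007kpj.1 and uc007kms.1) of the 63758 listed for this series, and all 4 were among the 8940 transcripts with enough counts to be tested. The RNA came from the left ventricle of male C57BL/6J mice (C57BL/6 in the labels), aged 8 to 12 weeks, after a sham operation for coronary ligation. Every mouse received pentobarbital and buprenorphine, a left thoracotomy and a loose suture around the left anterior descending artery, which was never tied. Hearts were taken from 8 mice at 0 min, from 8 others at 45 min and from 8 others at 24 h, the last after chest closure. The 0 min mice were therefore not untouched controls, since they had the same anaesthesia and incision.

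Chemokines bind G protein coupled receptors on leukocytes and guide them along a gradient held on the matrix and the endothelium. Ccl12, a mouse monocyte chemoattractant protein, acts through Ccr2, the receptor that brings inflammatory monocytes out of the blood, and Ccl8 belongs to the same protein group. Ccl6 and Ccl9 are ligands of Ccr1, which monocytes, macrophages and neutrophils carry, and both are made abundantly by myeloid cells.

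The 4 genes lie on mouse chromosome 11 in 2 groups of neighbours (GRCm38). Ccl12 (chr11:82101845-82103400) and Ccl8 (chr11:82115185-82116799) are on the plus strand, 11784 bases apart, next to Ccl2, Ccl7 and Ccl11. Ccl9 (chr11:83572919-83578636) and Ccl6 (chr11:83587882-83593087) are on the minus strand, 9245 bases apart. Ccl12 and Ccl8 have 3 exons, and Ccl9 and Ccl6 have 4. The promoters are shown because the 4 transcripts moved together. Each covers 250 bases before to 50 bases after the start site in RefSeq (GRCm38.p6), written 5′ to 3′ on the gene's own strand. Capitals mark TATAAA, the TATA box, and GAGGAA, a core recognised by the myeloid factor PU.1, on either strand. They stand at chr11:82101595-82101894 for Ccl12, chr11:82114935-82115234 for Ccl8, chr11:83578587-83578886 for Ccl9 and chr11:83593038-83593337 for Ccl6.
Ccl12: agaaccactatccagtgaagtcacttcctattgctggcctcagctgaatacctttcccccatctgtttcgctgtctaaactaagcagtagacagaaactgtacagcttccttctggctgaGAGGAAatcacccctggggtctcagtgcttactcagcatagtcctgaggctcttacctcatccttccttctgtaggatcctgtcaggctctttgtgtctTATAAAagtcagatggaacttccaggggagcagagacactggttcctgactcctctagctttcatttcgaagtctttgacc
Ccl8: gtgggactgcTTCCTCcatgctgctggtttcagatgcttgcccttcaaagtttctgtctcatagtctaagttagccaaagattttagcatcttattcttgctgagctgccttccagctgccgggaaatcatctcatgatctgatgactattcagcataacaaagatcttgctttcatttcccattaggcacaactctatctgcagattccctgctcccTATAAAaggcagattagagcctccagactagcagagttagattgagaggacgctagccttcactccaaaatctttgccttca
Ccl9: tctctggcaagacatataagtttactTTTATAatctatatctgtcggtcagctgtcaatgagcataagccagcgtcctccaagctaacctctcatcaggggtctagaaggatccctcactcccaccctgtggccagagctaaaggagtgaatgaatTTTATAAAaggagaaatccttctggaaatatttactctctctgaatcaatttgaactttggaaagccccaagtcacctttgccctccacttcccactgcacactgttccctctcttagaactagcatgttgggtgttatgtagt
Ccl6: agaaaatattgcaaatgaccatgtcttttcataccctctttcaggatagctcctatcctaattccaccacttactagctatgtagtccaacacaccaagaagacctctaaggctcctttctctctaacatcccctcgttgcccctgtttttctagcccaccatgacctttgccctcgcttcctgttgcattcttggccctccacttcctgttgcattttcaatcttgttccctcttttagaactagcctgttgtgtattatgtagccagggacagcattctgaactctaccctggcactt

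The TATA box began at position -31 in the Ccl12 promoter and at -32 in the Ccl8 promoter. In Ccl9 the box was found 3 times, at -224 on the opposite strand and as a pair of overlapping matches at -94 and -92 on opposite strands. The Ccl6 promoter held no match. Of 32544 RefSeq mouse promoters of this length, 13.6% hold this TATA box. The PU.1 core was present once in Ccl12 (-130) and once in Ccl8 (-240, opposite strand), beside 28.1% of all promoters. The letters searched for AP-1 (TGACTCA), STAT (TTCNNNGAA) and C/EBP (TTGCNNAA) were in none of the 4 promoters on either strand. The same held for the narrow forms searched for the NF-kB and interferon (ISRE) elements. In this order the searched forms occurred in 5.19%, 8.33%, 10.8%, 1.47% and 3.45% of all promoters. Looser forms of these elements were not searched, so their presence in the 4 promoters is not excluded.

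The values are counts of reads per transcript, divided by the library's total after edgeR's TMM scaling and given as normalised CPM. Library totals ran from 9887957 to 14091629 counts, and 12972 to 18865 transcripts had at least 1 count. Ccl8 rested on the fewest reads, with 1 to 19 counts per heart at 0 min, 1 to 37 at 45 min and 2 to 226 at 24 h. Ccl6 had at least 116 counts in every heart and Ccl9 at least 93. No alignment of the 4 transcripts to another gene's transcript was identical throughout over at least 76 bases, the read length. Exact stretches inside longer imperfect alignments were not counted. An unstranded count could mix Ccl6 with E230016K23Rik, which overlaps it on the opposite strand. Cardiomyocyte transcripts dominated the libraries, with summed CPM of Actc1, Mybpc3 and 4 other markers between 7038 and 29940.

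Ccl6 was the most abundant of the 4 transcripts at all 3 time points. At 0 min it ranged from 9.33 to 38.3 CPM (median 18.5), at 45 min from 11.5 to 59.7 (median 26.7) and at 24 h from 42.7 to 238 (median 164). All 8 hearts at 24 h stood above all 8 at 0 min, a separation upwards that 0.996% of the tested transcripts showed. Group means were 20.3 ± 8.98, 31.1 ± 16.04 and 151 ± 70.2 CPM (SD, n = 8 each). Ccl6 rose 7.47-fold at 24 h against 0 min, a log2 fold change of 2.90 ± 0.36 (SE; edgeR quasi-likelihood test, Benjamini-Hochberg adjusted p = 5.20e-06).

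Ccl9 followed Ccl6 closely. It ranged from 7.73 to 31.1 CPM at 0 min (median 13.7), from 9.23 to 60.1 at 45 min (median 22.6) and from 21.5 to 210.4 at 24 h (median 79.0). At 24 h, 7 of 8 hearts exceeded the highest 0 min heart, and the exception was replicate 8. Means were 16.3 ± 7.24, 27.8 ± 18.7 and 90.7 ± 58.2 CPM. The rise at 24 h against 0 min was 5.56-fold (log2 fold change 2.47 ± 0.42, edgeR adjusted p = 0.000247).

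Ccl12 was a low transcript at 0 min. It ranged from 0.459 to 1.66 CPM at 0 min (median 1.29), from 0.198 to 9.07 at 45 min (median 2.24) and from 1.21 to 24.0 at 24 h (median 6.59). The 0 min hearts were close together, whereas the 45 min and 24 h hearts were widely spread, with 5 of 8 and 7 of 8 above the highest 0 min heart. Means were 1.14 ± 0.391, 3.30 ± 3.10 and 8.26 ± 7.29 CPM. The rise at 24 h against 0 min was 7.19-fold (log2 fold change 2.85 ± 0.57, edgeR adjusted p = 0.0015).

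Ccl8 was the lowest of the 4. It ranged from 0.0797 to 1.86 CPM at 0 min (median 0.499), from 0.0799 to 3.15 at 45 min (median 0.443) and from 0.162 to 19.5 at 24 h (median 1.93). At 24 h 5 of 8 hearts exceeded the highest 0 min heart, replicate 4 stood far above the rest, and replicate 8 lay below 7 of the 8 hearts at 0 min. Means were 0.627 ± 0.557, 1.13 ± 1.31 and 4.17 ± 6.31 CPM. The rise at 24 h was 6.61-fold (log2 fold change 2.73 ± 0.75, edgeR adjusted p = 0.0235). It rested on single hearts: the adjusted p was 0.111 without 24 h replicate 4, with a log2 fold change of 1.63, and it was 0.0552 without 0 min replicate 1 and 0.0535 without 0 min replicate 7.

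**Figure D1:**
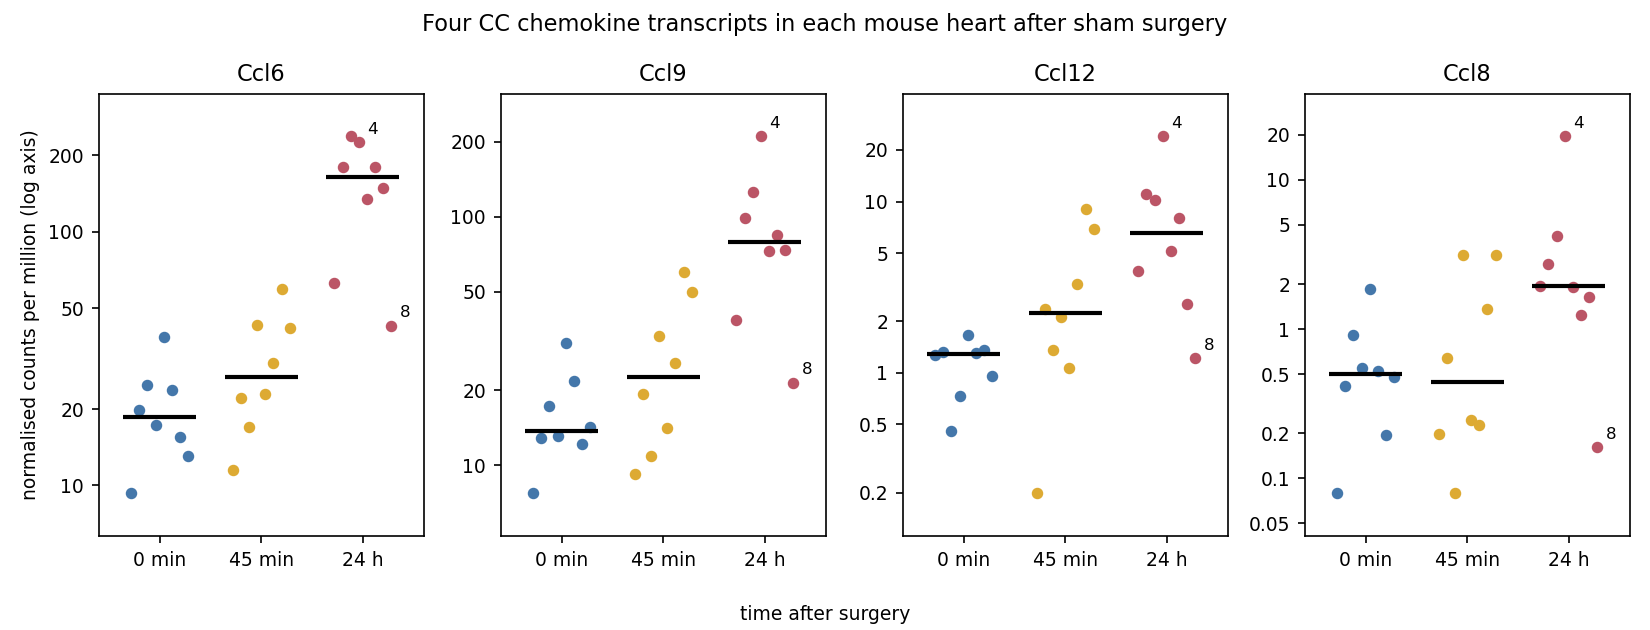
Normalised CPM (log axis) of each chemokine in each heart by time after surgery. Points are mice, spread sideways by replicate number, bars are medians of 8, and 24 h replicates 4 and 8 are numbered. All 8 Ccl6 values at 24 h lie above 38.3 CPM, the highest at 0 min, while the other 3 transcripts overlap between these time points.

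At 24 h against 0 min, 4 of 4 chemokines were thus higher, beside 4.44% of the 8940 tested transcripts that were called higher and 7.68% called in either direction. Their median log2 fold change was 2.79, and that of all tested transcripts was 0.0033. Over all 3 time points together 4 of 4 changed by the same method (8.91% of all transcripts), with adjusted p of 1.95e-06 for Ccl6, 0.000228 for Ccl9, 0.00319 for Ccl12 and 0.0278 for Ccl8. For Ccl8 this call was lost in 7 of 24 fits that each left out 1 heart. These were the fits without 0 min replicate 1, 4, 6, 7 or 8 and without 24 h replicate 3 or 4, and the adjusted p rose at most to 0.192, without 24 h replicate 4. The 4 symbols come from the study's own list of changed transcripts and were chosen with earlier results known. The counts of 4 of 4 are therefore not independent evidence.

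At 45 min none of the 4 chemokines passed edgeR's test against 0 min, beside 0.727% of all transcripts called, 0.481% higher and 0.246% lower. The log2 fold changes were 0.61 ± 0.34 for Ccl6, 0.77 ± 0.40 for Ccl9, 0.84 ± 0.80 for Ccl8 and 1.51 ± 0.57 for Ccl12 (SE), with edgeR adjusted p of 0.947, 0.921, 0.952 and 0.522. At an unadjusted p under 0.05 the count was 1, Ccl12, and DESeq2 and limma-voom also called 0 after adjustment. The 95% interval for Ccl12 ran from 0.39 to 2.63 and that for Ccl6 from -0.056 to 1.29, both without adjustment for the number of transcripts. The highest Ccl12 and Ccl9 values at 45 min came from replicates 7 and 8, which with replicate 6 had the fewest transcripts detected at that time (12972 to 14353). Without these 3 hearts the log2 fold changes were 0.18 for Ccl6, 0.061 for Ccl9, 0.45 for Ccl8 and 0.33 for Ccl12, a comparison chosen after the data were seen. With the number of detected transcripts as a covariate, 0 of 4 were called at 45 min. Across the 45 min hearts the r with that number was -0.676 for Ccl6, -0.768 for Ccl9, -0.431 for Ccl8 and -0.797 for Ccl12. The exact permutation adjusted p of these ran from 0.225 to 0.572. The size of any part of library complexity in the early values was not tested.

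The step from 45 min to 24 h was called for Ccl6 and Ccl9, 2 of 4, beside 9.09% of all transcripts called, 4.59% higher and 4.51% lower. Ccl6 rose 4.88-fold (log2 fold change 2.29 ± 0.35, edgeR adjusted p = 0.00012), and 7 of 8 hearts at 24 h exceeded the highest at 45 min. None of the 4 separated these groups fully, which 0.682% of all transcripts did upwards. Ccl9 rose 3.27-fold (1.71 ± 0.41, adjusted p = 0.00786) with 6 of 8 above. Ccl8 and Ccl12 differed by 1.89 ± 0.71 and 1.34 ± 0.52 on the log2 scale, with edgeR adjusted p of 0.0966 and 0.108. For Ccl12, 3 of 8 hearts at 24 h exceeded the highest heart at 45 min. Leaving out 45 min replicate 7, the highest Ccl12 heart of that group, gave 1.74 with an adjusted p of 0.0496. Without 24 h replicate 4 the log2 fold change was 0.81 for Ccl12 and 0.78 for Ccl8. With the number of detected transcripts as a covariate 4 of 4 were called, Ccl8 at 2.53 (adjusted p = 0.00959) and Ccl12 at 2.23 (adjusted p = 0.00163).

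**Figure D2:**
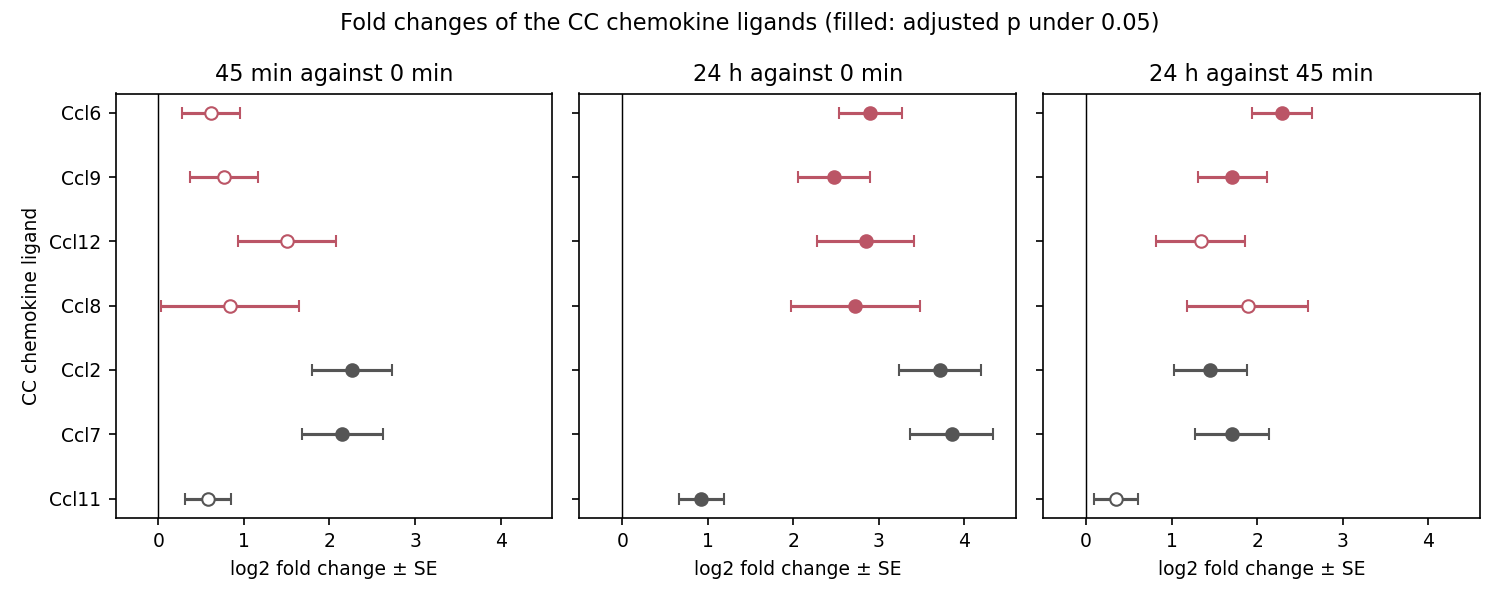
Log2 fold change ± SE (edgeR) of each CC chemokine ligand for the 3 pairs of time points. Filled points passed an adjusted p of 0.05, Ccl6, Ccl9, Ccl12 and Ccl8 are red, and Ccl2, Ccl7 and Ccl11 are grey. In the 45 min panel only Ccl2 and Ccl7 are filled, and in the 24 h against 0 min panel all 7 are.

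The neighbouring CC ligands Ccl2 and Ccl7, which both act through Ccr2, had another course. Ccl2 ranged from 1.05 to 3.90 CPM at 0 min (median 1.79), from 4.17 to 21.6 at 45 min (median 10.3) and from 2.51 to 54.9 at 24 h (median 22.5). All 8 hearts at 45 min were above all 8 at 0 min, a separation that 0.235% of transcripts showed. At 45 min Ccl2 was 2.26 higher and Ccl7 2.15 higher on the log2 scale (edgeR adjusted p = 0.012 and 0.022). These calls were lost without 45 min replicates 6, 7 and 8 together. Ccl11, the eosinophil chemoattractant of the same cluster, was called only at 24 h against 0 min (log2 fold change 0.93, adjusted p = 0.029). The 3 symbols come from the study's own list of changed transcripts, so their rise is not independent evidence.

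The ratio of each of the 4 chemokines to Ccl2 and to Ccl7 within a heart is given as a description with no test, since both genes were picked after their values were seen (log2(CPM + 0.5), 8 hearts at each time). From 0 to 45 min the mean ratio to Ccl2 fell by 1.43 ± 0.18 (SE) for Ccl6, by 1.40 ± 0.21 for Ccl9, by 1.70 ± 0.35 for Ccl8 and by 1.15 ± 0.33 for Ccl12. From 0 min to 24 h the differences for Ccl6 were -0.31 ± 0.27 against Ccl2 and -0.55 ± 0.27 against Ccl7. Against Ccl2 they were -0.83 ± 0.26 for Ccl9, -1.63 ± 0.41 for Ccl8 and -1.06 ± 0.32 for Ccl12. Against Ccl7 they were -1.06 ± 0.24 for Ccl9, -1.86 ± 0.37 for Ccl8 and -1.29 ± 0.30 for Ccl12. Ccl11 had a log2 fold change of 0.57 at 45 min, below the values of all 4. The constant of 0.5 understates the changes of low transcripts such as Ccl8.

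The log2 ratios of the 6 pairs among the 4 chemokines were compared over the 3 pairs of time points (18 two-sided exact permutation tests on log2(CPM + 0.5), Benjamini-Hochberg). The smallest p that 8 against 8 hearts can give is 0.000155. Ccl6 gained on Ccl9 by 0.52 ± 0.14 from 0 min to 24 h and by 0.55 ± 0.15 from 45 min to 24 h on the log2 scale (both adjusted p = 0.0280). Its CPM was 1.76 times that of Ccl9 at 24 h and 1.23 times at 0 min, as geometric means with the constant included. From 0 min to 24 h Ccl6 gained 1.32 ± 0.37 on Ccl8 (0.0280) and Ccl9 gained 0.80 ± 0.27 on Ccl8 (0.0414). From 45 min to 24 h Ccl6 gained 1.04 ± 0.34 on Ccl12 (0.0385). No pair differed in response at 45 min (0 of 6; exact permutation, 0 of 6 also at an unadjusted p under 0.05). With a constant of 0.1 only the Ccl6 and Ccl9 differences passed, and edgeR's own fold changes of Ccl6 and Ccl8 from 0 min to 24 h were 2.90 and 2.73. No pair passed when 24 h replicate 3, 5, 6, 7 or 8 was left out, and from 45 min to 24 h no pair passed without 45 min replicate 2, 6, 7 or 8 and 1 passed without replicate 3. Where none passed, the lowest adjusted p was 0.0503 to 0.0559.

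Within a time point, hearts that were high in one of the chemokines were mostly high in the others. Ccl6 and Ccl9 were correlated at 0 min (r = 0.930, rho = 0.810), then at 45 min (r = 0.965, rho = 0.952) and at 24 h (r = 0.953, rho = 0.976), with exact permutation adjusted p of 0.00929, 0.00268 and 0.00268 for r (8 hearts each, log2(CPM + 0.5)). Without the 2 hearts farthest from the median of Ccl6 the r values were 0.689, 0.943 and 0.843. For Ccl12 no relation passed at 0 min, with r of 0.0743 to Ccl6, 0.143 to Ccl9 and -0.0633 to Ccl8 (exact permutation adjusted p = 0.869, 0.832 and 0.862). Without the 2 farthest hearts these were -0.265, -0.147 and -0.839. At 45 min and 24 h Ccl12 and Ccl9 had r of 0.934 and 0.914 (exact permutation adjusted p = 0.00506 and 0.00929), and 0.876 and 0.684 without the 2 farthest hearts. Of 18 relations computed, 14 passed by r, and 9, 8, 8 and 8 passed without the hearts numbered 1, 4, 5 and 8. Fewer passed by rho (exact permutation). Those lost were Ccl6 with Ccl8 at 24 h (adjusted p = 0.0589), Ccl6 with Ccl12 at 45 min (0.0509) and Ccl8 with Ccl9 at 24 h (0.0509). Whether the relations at 0 min and 24 h differ was not tested, and values from 1 library share its depth and scale factor. For Ccl8 with Ccl9 at 24 h, r fell from 0.882 to 0.518 without replicates 4 and 8.

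**Figure D3:**
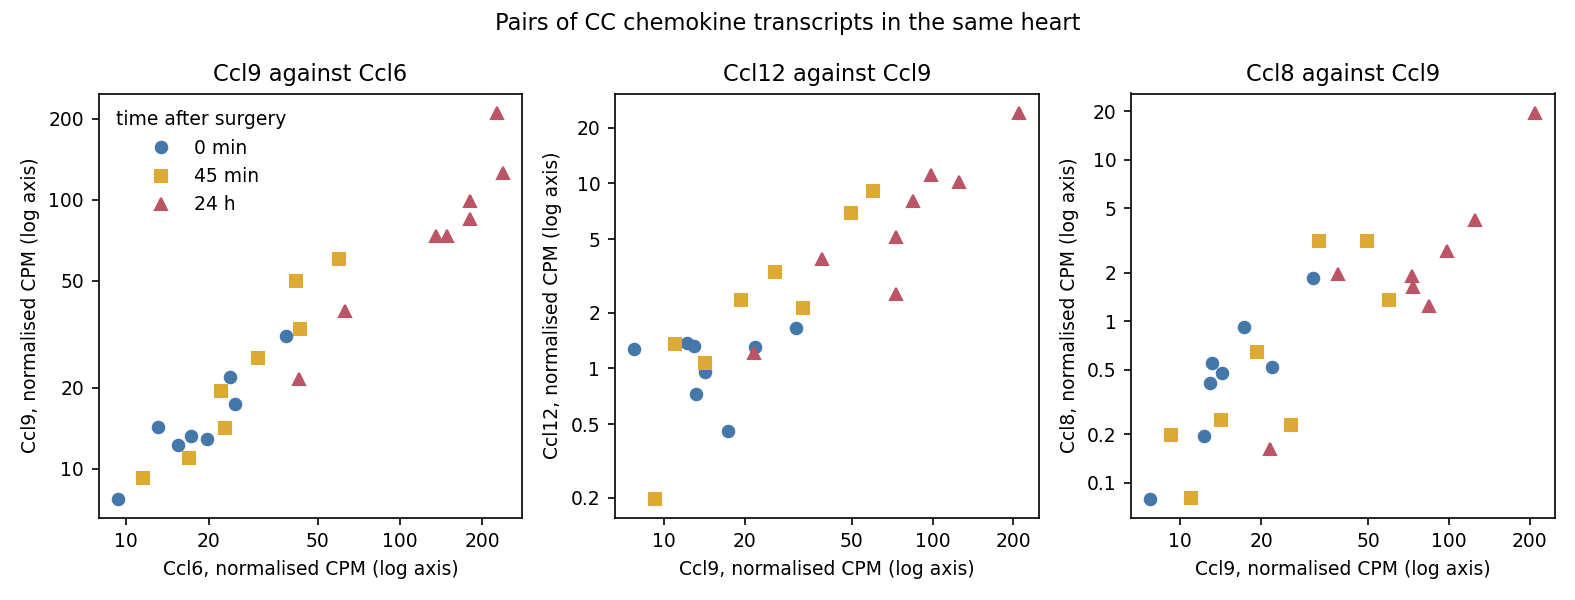
Normalised CPM of 2 chemokines in the same heart on log axes, coloured by time point, with 8 hearts at each. Ccl9 and Ccl6 lie along 1 band at all time points (r = 0.930, 0.965 and 0.953), whereas the 0 min hearts show no slope of Ccl12 on Ccl9 (r = 0.143).

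A pair of hearts marked the ends of the 24 h group. Replicate 8 was the lowest heart in all 4 chemokines, at 42.7 CPM for Ccl6, 21.5 for Ccl9, 1.21 for Ccl12 and 0.162 for Ccl8. Replicate 4 was the highest in Ccl9 (210.4), Ccl12 (24.0) and Ccl8 (19.5). Replicate 3 was the highest in Ccl6 (238), with replicate 4 next below it at 226. Without replicates 4 and 8 together, a choice made after the data were seen, the log2 fold changes at 24 h against 0 min were 2.96 for Ccl6, 2.33 for Ccl9, 2.57 for Ccl12 and 1.87 for Ccl8. The edgeR adjusted p was then 0.0536 for Ccl8 and at most 0.00119 for the other 3. No chemokine correlated with the number of detected transcripts within a time point after adjustment (12 relations, lowest adjusted p = 0.225, exact permutation, 8 hearts each), although all 12 r values were negative, from -0.797 to -0.164.

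Per kilobase of transcript the order of the levels was Ccl6, Ccl9, Ccl12, Ccl8 at every time point. The median level at 0 min was 12.9 CPM per kb for Ccl6, 4.56 for Ccl9, 2.40 for Ccl12 and 0.977 for Ccl8. At 24 h the medians were 113.9, 26.3, 12.3 and 3.78 CPM per kb. Within a heart Ccl6 exceeded Ccl9 and Ccl9 exceeded Ccl12 in 8 of 8 hearts at each time point, and Ccl12 exceeded Ccl8 in 6, 6 and 8 of 8. Over hearts the ranges of all neighbours in this order overlapped at each time point. The transcript models used were 1440 bases for Ccl6, 3006 for Ccl9, 537 for Ccl12 and 511 for Ccl8.

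Receptors and pathway genes moved as follows, all from symbols the study had listed as changed in these samples, so their counts are not independent evidence. Of 4 listed CC receptor transcripts 2 could be tested, and both rose at 24 h: Ccr1 by 2.78 and Ccr2 (uc012hdh.1) by 2.91 on the log2 scale (edgeR adjusted p = 0.00011 and 3.3e-05). Ccr1 ranged from 0.459 to 1.50 CPM at 0 min and from 2.19 to 12.3 at 24 h, with no overlap. Ccr2 was at 1.54 CPM (median) at 0 min, 1.04 at 45 min and 10.04 at 24 h, and its value at 45 min against 0 min was -0.47 (adjusted p = 0.95). Of 10 genes of chemokine receptor signalling, 6 were higher and 1 was lower at 24 h, beside 4.44% and 3.24% of all transcripts, with a median of 1.13. Fgr, a Src family kinase of myeloid cells, rose by 3.29 (adjusted p = 0.00018). Pik3r5, the regulatory subunit of the phosphoinositide kinase that these receptors activate, rose by 2.32 (0.0004). Rac2, a GTPase of blood cells, rose by 1.39 (0.01), Was, an actin regulator, by 1.18 (0.0013) and Grk5, a kinase that desensitises receptors, by 1.08 (2.7e-05). Adcy5, the cardiac adenylyl cyclase, fell by 0.46 (0.0027). At 45 min 1 of the 10 was higher, Nfkbia, the inhibitor of NF-kB (0.95, adjusted p = 0.0038).

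CXC ligands, only some of which act on neutrophils, moved in both directions. Of 6 tested out of 9 listed, 2 were higher at 45 min, and 3 were higher and 1 was lower at 24 h against 0 min. Of all transcripts 0.481% were called higher at 45 min, and 4.44% higher and 3.24% lower at 24 h. These symbols too come from the study's list of changed transcripts, so the counts are not independent evidence. Cxcl1, a neutrophil attractant, rose by 3.75 on the log2 scale at 45 min (edgeR adjusted p = 1.8e-07), and Cxcl9, an attractant of T cells, fell by 1.55 at 24 h (4.4e-05).

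Leukocyte markers rose with the 4 chemokines at 24 h. All marker symbols come from the study's own list of changed transcripts, so the counts of markers called are not independent evidence. In whole ventricle, more cells of a type and more RNA per cell cannot be told apart. Of the tested markers, 6 of 6 for monocytes, 9 of 9 for macrophages, 5 of 5 for neutrophils and 3 of 5 for resident macrophages were higher at 24 h against 0 min, with median log2 fold changes of 2.86, 1.85, 4.08 and 0.97. Another 1, 1, 2 and 1 listed markers were too low to test. Of all tested transcripts, 4.44% were called higher and 3.24% lower in this comparison. The summed monocyte markers ranged from 5.03 to 11.2 CPM at 0 min and from 20.5 to 138 at 24 h. The summed macrophage markers ranged from 32.6 to 50.5 CPM at 0 min and from 58.2 to 370 at 24 h, and Arg1, an enzyme of wound macrophages, was at 0 counts in 3 of 8 hearts at 0 min and at 71.7 CPM (median) at 24 h. The summed neutrophil markers ranged from 2.58 to 15.6 and from 99.1 to 549 CPM, of which Lcn2, also an acute phase gene, made up 330.2 CPM (median) at 24 h. Cxcr2 and Mmp8, a receptor and a granule enzyme of neutrophils, were at 0 counts in 3 of 8 hearts each at 0 min and in none at 24 h. Replicate 8 at 24 h was the lowest heart also in these 3 sums. Replicate 4, the highest in the summed chemokines (480 CPM), was not the highest in any of them, at 56.1 CPM for monocyte, 232 for macrophage and 197 for neutrophil markers. In the summed resident macrophage markers replicate 4 was the lowest 24 h heart (126 CPM), with replicate 8 next above it (127 CPM). Mesothelial markers, from the surface layer of the heart, were higher too (5 of 5 tested, median 2.14), and 2 of 6 cardiomyocyte markers were lower. The part of cell content in the rise of the chemokines was not tested.

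At 45 min 0 of 6 monocyte, 0 of 9 macrophage, 0 of 5 resident macrophage and 0 of 5 neutrophil markers were called by edgeR, with 2, 0, 1 and 4 at an unadjusted p under 0.05. Of all tested transcripts, 0.727% were called at this time. In the 0 min group replicate 5 was the highest heart in Ccl6 (38.3 CPM), Ccl9 (31.1), Ccl12 (1.66) and Ccl8 (1.86), and also in the summed macrophage (50.5) and neutrophil (15.6) markers.

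**Figure D4:**
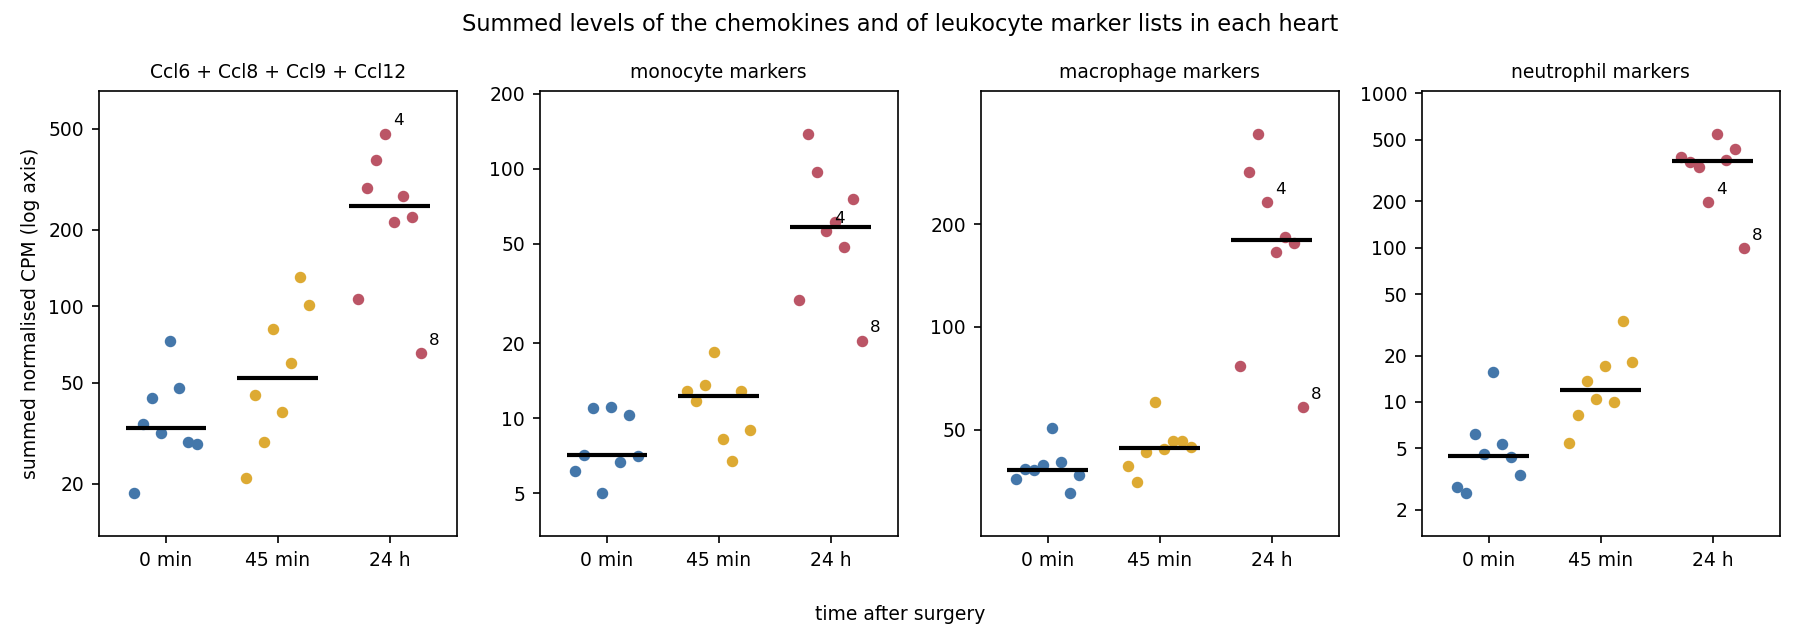
Summed normalised CPM (log axis) of the 4 chemokines and of 3 lists of leukocyte markers in each heart, with medians as bars. Replicate 8 is the lowest 24 h heart in all 4 panels, and replicate 4 is the highest only for the chemokines.

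The transcripts most like each chemokine were sought among 1097 tested transcripts with a known symbol, by Pearson r over the 24 hearts on log2(CPM + 0.5), as a description that includes the shared change over time. For Ccl6 they were Ccl9 (r = 0.968), Mmp9, a matrix protease of neutrophils and macrophages (0.937), and Efhd2, a calcium binding protein (0.934). For Ccl9 they included Ccl6 (0.968) and Mmp9 (0.924). For Ccl12 they were Ccl9 (0.906), Slfn2, a schlafen family gene (0.905), and Ccl7 (0.877). For Ccl8 they were Cfp, the complement factor properdin (0.902), Ccl9 (0.869) and Emilin1, an elastic fibre glycoprotein (0.866). Among all 8939 other tested transcripts Ccl9 ranked first for Ccl6 and for Ccl12, and second for Ccl8. Ccl6 and Ccl9 are adjacent genes, whereas Ccl12 and Ccl8, also adjacent, were not among each other's 3 closest and had an r of 0.782. Deviations from the time point means gave r of 0.949 for Ccl6 with Ccl9 and 0.693 for Ccl12 with Ccl8.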

How the data were processed

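The deposited table gives counts of reads per UCSC transcript, made by the authors from polyA RNA libraries (NextFlex directional kit, single reads of 76 bases). Per the submitters' processing notes they used cutadapt 1.9.1, TopHat2 2.1.0, Bowtie2 2.2.9 and HTSeq 0.6.0 on mm10. The strand setting of the counting, the annotation release and the treatment of reads with several matches are not given in the sources used here. The 24 columns were assigned to 3 time points by name, and 1 row without a transcript name was left out. Symbols came from the study's table of changed transcripts, matched by transcript identifier. The 4 chemokines and all lists were chosen with earlier results of these data known.

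Of 63758 transcripts 27661 had a count, and 8940 passed edgeR's filterByExpr (minimum 10 counts, total 15). edgeR 4.0.16 (R 4.3.3) fitted time in 1 quasi-likelihood model over the 24 samples with TMM scaling, adjusted over all tested transcripts (Benjamini-Hochberg, threshold 0.05). The scripts were tested on simulated counts. Ratios within hearts and correlations used log2(CPM + 0.5) and two-sided exact permutation tests. Standard errors of ratio differences came from the spread of both groups. DESeq2 1.42.0, limma 3.58.1 and sva 3.50.0 served as alternatives, with other scale factors, filters, pseudocounts, a replicate block, a stricter threshold and each heart left out in turn. Named genes were the 4 chemokines, the lists, and the 3 transcripts most correlated with each chemokine, of which 1 is not reported here. The authors' own fold changes and p-values were not used. Gene models were GENCODE M21 on GRCm38, which is the mm10 build, and promoters were RefSeq (GRCm38.p6). The 84 pairs of samples within a group all differed by more than counting noise (lowest chi-square per degree of freedom 8.64). Each mouse gave 1 library. The paper reports different surgeons and different library pools, and saw its samples cluster by neither in principal component plots. No label gives the operator or the sequencing pool of a heart, so neither was used. Their part in the spread between hearts was not tested. Proteins were not analysed here.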

Additional observations from a re-analysis of the deposited data

Results flagged for a closer look

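In 7 of 24 groups of 8 hearts examined (the 4 chemokines and 4 summed marker lists at 3 time points), 1 heart stood apart from the others by a gap, relative to the whole range, above Dixon's 95% limit. For normally distributed values this limit is passed in about 1 in 20 groups. The values here were CPM without logarithm, each heart apart was the highest of its group, and the groups share hearts. The count of 7 therefore cannot be set against that rate. At 24 h replicate 4 was apart in Ccl8, at 19.5 CPM with the next heart at 4.23, and in Ccl12, at 24.0 CPM with the next at 11.1. In Ccl9 the same heart was the highest without passing this limit. At 0 min replicate 5 was apart in Ccl8, at 1.86 CPM with the next at 0.917, in the summed macrophage markers (50.5 against 40.2 CPM) and in the summed neutrophil markers (15.6 against 6.24 CPM). At 45 min replicate 4 was apart in the summed macrophage markers (60.2 against 46.4 CPM) and replicate 7 in the summed neutrophil markers (33.2 against 18.1 CPM). The cause of these gaps was not tested.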

How the results depend on the processing

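No fold change of the 4 chemokines changed direction under any alternative run, but at 0 min the r of Ccl12 with Ccl6 and with Ccl9, neither past the threshold, changed sign without the 2 farthest hearts (-0.265 and -0.147). The counts of chemokines called held within 1.5 times except as follows. By limma-voom 2 of 4 changed over time, with Ccl8 (adjusted p = 0.21) and Ccl12 (0.0562) lost. At 24 h against 45 min 4 were called with the number of detected transcripts as a covariate and 4 with 1 surrogate variable, against 2 as reported. Ccl8 at 24 h against 0 min was lost by limma-voom (adjusted p = 0.151) and at a threshold of 0.01, and was not tested with a minimum of 30 counts. With each heart left out in turn the calls were 3 to 4 over time, 0 at 45 min, 3 to 4 at 24 h against 0 min and 2 to 3 at 24 h against 45 min. Pairs of chemokines that differed in response were 1 at 24 h against 0 min and 1 at 24 h against 45 min with a pseudocount of 0.1, and 4 and 4 with 1. They ran from 0 to 4 and from 0 to 3 with each heart left out. Correlated pairs ran from 8 to 14 with each replicate number left out. Deviations of same-numbered samples from their group means gave 24 correlations from -0.541 to 0.583, of which 13 were over 0.1. They were not compared with those of differently numbered samples, so whether the numbers link the hearts was not decided. With the replicate number as a block in edgeR, 3 chemokines changed over time, 0 at 45 min, 3 at 24 h against 0 min (Ccl8 adjusted p = 0.0627) and 2 at 24 h against 45 min, and by the exact paired test 0 and 0 pairs differed in response at 24 h. Depth limits Ccl8 most, at 1 to 37 counts per heart before 24 h.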
